A study of Sus scrofa with 6 samples.

Results

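Collagens and laminins are the protein families that build most of the fibrous and sheet-like extracellular matrix, and their RNA levels were described here in cultured marrow stromal cells of the pig. The genes were taken by name: every gene with a single symbol in the platform annotation of the form COL, number, A, number, or LAM with A, B or C and a number, except COL2A1 and LAMA2, each represented by 1 probe set, the one brightest on average. The rule found 33 genes, 28 for collagen chains and 5 for laminin chains, among 11079 genes with a symbol and 27558 probe sets. The choice went by gene name, and it was made with earlier results of these data known. Measured levels entered only the choice of the probe set for each gene. Chains such as COL6A1, COL6A2, COL18A1, LAMA5, LAMB2 and LAMC1 had no probe set of that kind and were not analysed here.

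The cultures were mesenchymal stem cells, the plastic-adherent stromal cells of bone marrow, at passage 0 and 80% confluence. Of the 6 arrays, 3 held RNA from cultures of mandibular marrow, aspirated at the symphysis of the lower jaw, and 3 held RNA from cultures of tibial marrow. All donors were female American Yorkshire pigs aged 4 months, 3 animals in total, and both kinds of marrow were cultured in alpha-MEM with fetal bovine serum. Marrow was plated without sorting, and the labels number the samples of each site but tie no number to an animal. Levels are log2 values of the deposited RMA table, so 1 unit is a doubling, and levels of different genes are not comparable because each probe set has its own brightness. The table does not say whether a gene was detected above background.

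Collagen chains assemble in threes into triple helices. Fibrillar collagens form the cross-banded fibrils of bone, tendon and skin, FACIT collagens sit on the surface of those fibrils, and collagen VI forms beaded microfibrils. Collagen IV and the laminins, which are heterotrimers of an alpha, a beta and a gamma chain, form the networks of basement membranes, the thin sheets under epithelia and around vessels, muscle and nerve. In bone marrow, stromal cells and vessel walls are known sources of both kinds of matrix.

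Stromal markers were not all steady over the arrays, and positional genes set 2 arrays apart from their labelled site. THY1, a surface marker of stromal cells, ranged from 10.50 to 10.70 on the mandibular arrays, against 10.61 to 10.64 on the tibial arrays, and ENG ranged from 10.02 to 10.57, against 9.47 to 10.19. Of the other 8 measured stromal markers, VCAM1 varied most, at 4.28, 5.57 and 3.68 on mandibular arrays 1, 2 and 3, against 9.52, 7.55 and 4.10 on tibial arrays 1, 2 and 3, and CXCL12 stayed low at 4.14 to 4.39, against 4.26 to 5.06. The mean level of 6 HOX genes of the limb and trunk was 4.58, 6.71 and 4.59 on mandibular arrays 1, 2 and 3, against 6.67, 6.80 and 5.06 on tibial arrays 1, 2 and 3. For 7 genes of jaw mesenchyme the mean was 7.02, 4.90 and 6.78, against 5.06, 4.84 and 6.90. The array labelled mandibular 2 was thus close to tibial 1 and 2 on both lists, and the array labelled tibial 3 was close to mandibular 1 and 3. Whether these 2 arrays carry each other's labels was not tested and the labels do not settle it, so site differences as labelled hold only as far as the labels do. Site names and numbers below are those of the labels. The differences of all 33 genes are plotted both with all 6 arrays and without those 2, and the larger moves are given in the text.

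No collagen or laminin gene was called different between mandibular and tibial cultures. The differences, mandibular minus tibial, had a median of -0.07 over the 33 genes and ran from -1.07 for COL8A1 to 0.49 for COL14A1, while the median over all probe sets was 0.0041. Called genes numbered 0 of 33 in limma (adjusted p = 0.9995 for each), where 0% of all probe sets were called. At an unadjusted p under 0.05 there were also 0 of 33, where the share of all probe sets was 3.03%. The difference was smaller than the range within both sites for 27 of the 33 genes. The 95% interval of the difference stayed within 1 log2 unit of no difference for 22 genes and reached past it for 11. For those 11, differences of more than 1 log2 unit were not excluded with 3 arrays a site.

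By direction, 25 of the 33 genes had the lower mean in mandibular cultures and 8 had the higher, a share of 75.8% lower where 49.0% of all probe sets were lower. In fits that left out 1 array, between 4 and 15 genes were higher in mandibular cultures. For 2 genes all 3 mandibular values lay below all 3 tibial values, and for none above, while 6.92% of all probe sets had no overlap in either direction, and 3.57% had all mandibular values below.

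Spread between arrays, rather than between sites, was the larger feature of these genes. The highest and lowest array lay 1 log2 unit or more apart for 12 of the 33 genes (36.4%), against 16.1% of all probe sets, and the median range was 0.68, against 0.53. The probe sets were not matched on level for that comparison. Among the 12 genes, the highest value lay on mandibular 2 for 5, on tibial 1 for 3, on tibial 2 for 3 and on tibial 3 for 1. The lowest value lay on mandibular 1 for 4, on mandibular 3 for 3, on tibial 3 for 3 and on tibial 2 for 2, and on neither mandibular 2 nor tibial 1 for any of them.

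**Figure D1:**
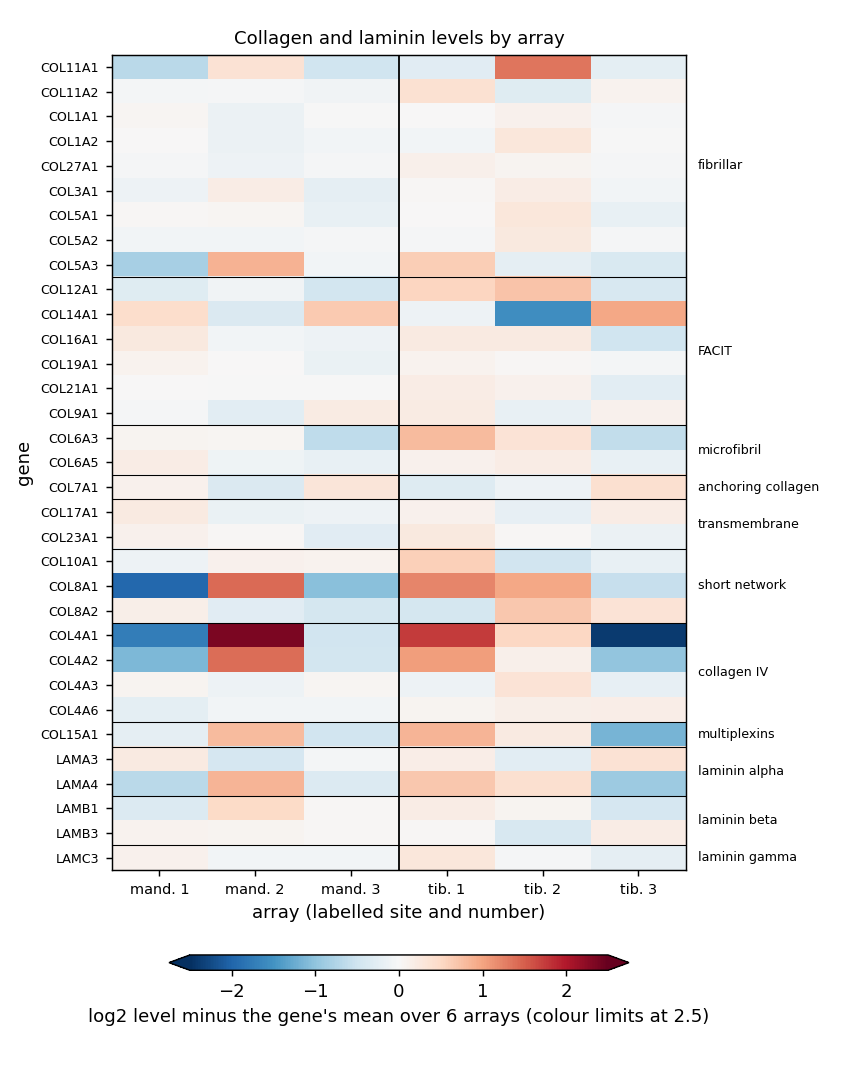
Heat map of the 33 genes (rows, grouped by structural class) on the 6 arrays (columns, mandibular left of the line), coloured by the log2 level minus the mean of that gene over the arrays. COL4A1, COL4A2, COL8A1, COL15A1 and LAMA4 are red on mandibular 2 and tibial 1, COL14A1 is bluest on tibial 2, and rows such as COL1A1 and COL1A2 are nearly white.

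On the probe sets used, the chains of collagen I varied little between the arrays. COL1A1 and COL1A2 encode both chains of collagen I, the main protein of bone and tendon. COL1A1 measured 13.45, 13.24 and 13.39 on mandibular arrays 1, 2 and 3, against 13.40, 13.49 and 13.37 on tibial arrays 1, 2 and 3. COL1A2 measured 13.36, 13.19 and 13.26, against 13.26, 13.61 and 13.33. Both genes were lowest on mandibular 2 and highest on tibial 2, and their site values overlapped, with differences of -0.06 (SE 0.11) and -0.13 (SE 0.13). Their 95% intervals ran from -0.34 to 0.21 and from -0.45 to 0.19. The second probe set of COL1A1 ranged more widely, over 0.58, where the median range of all probe sets was 0.53. It was also lowest on mandibular 2, but highest on mandibular 1, and differed by -0.12 (SE 0.17).

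COL3A1, the chain of collagen III in the fine fibrils of soft tissue, averaged 12.14 ± 0.22 in mandibular and 12.24 ± 0.13 in tibial cultures (SD, n = 3 each). COL5A2, a chain of collagen V, which starts and limits the growth of collagen I fibrils, lies next to COL3A1 in the RefSeq annotation of Sscrofa11.1 with 0 protein-coding genes between them. It measured 11.65, 11.66 and 11.68 in mandibular cultures, against 11.69, 11.96 and 11.69 in tibial cultures. The values of COL5A2 did not overlap, but the gap between the highest mandibular and the lowest tibial value was small and the difference was -0.12 (SE 0.12). COL5A1, the other common chain of collagen V, differed by -0.08 (SE 0.16), COL11A2 by -0.11 (SE 0.18) and COL27A1 by -0.12 (SE 0.11). All 9 measured fibrillar chains had the lower mean in mandibular cultures, where 49.0% of all probe sets were lower. Their median was -0.11, and 0 of them were called, as were 0% of all probe sets. The signs were not all stable: those of COL5A1, COL11A2 and COL5A3 changed in single omissions.

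COL5A3 and COL11A1 were the 2 fibrillar chains that spanned 1 log2 unit or more. COL5A3, the least common chain of collagen V, measured 5.595, 7.29 and 6.36 in mandibular cultures, against 7.05, 6.19 and 6.05 in tibial cultures. It was highest on mandibular 2 and tibial 1 and lowest on mandibular 1, a 3.23-fold span, and its site means differed by -0.02 (SE 0.46). COL11A1, a chain of the fibrils of cartilage that stromal cells also make, measured 7.03, 8.06 and 7.22, against 7.43, 9.05 and 7.46. Tibial 2 stood highest and mandibular 2 next, and without the array labelled tibial 2 the difference of -0.54 (SE 0.49) shrank to -0.01.

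Among the FACIT collagens, COL12A1 and COL14A1 had site differences of opposite sign. COL12A1, found on fibrils of dense connective tissue and periosteum, measured 10.07, 10.28 and 9.91 in mandibular cultures, against 10.91, 11.08 and 9.98 in tibial cultures. Tibial 1 and 2 were the 2 highest arrays and tibial 3 lay among the mandibular values, so that the sites overlapped, with a difference of -0.57 (SE 0.29). Its sign held in each single omission, between -0.90 and -0.36. COL14A1, a related collagen of tendon and skin fibrils, measured 10.01, 9.19 and 10.22, against 9.43, 8.01 and 10.52. It was highest on tibial 3, followed by mandibular 3 and mandibular 1, and lowest on tibial 2, a 5.70-fold span. The difference was 0.49 (SE 0.62), and it ran from -0.17 without tibial 2 to 1.09 without tibial 3.

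The other 4 FACIT chains spanned less than 1 log2 unit. COL16A1 had a range of 0.75, with 7.81 ± 0.20 in mandibular and 7.77 ± 0.42 in tibial cultures (SD, n = 3 each), and was lowest on tibial 3. COL19A1 differed by -0.04 (SE 0.12). COL21A1 stayed at 3.61 to 4.06 and COL9A1, which encodes a chain of cartilage fibrils, at 3.02 to 3.49, where the lower quartile of all probe sets lay between 3.855 and 3.941. Such levels cannot be separated from background. COL9A1 lay below the lower quartile on 6 of the arrays and COL21A1 on 2.

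COL6A3 encodes the largest chain of the common collagen VI trimer, whose microfibrils surround cells and link them to fibrils. It measured 10.42, 10.39 and 9.71 in mandibular cultures, against 11.14, 10.68 and 9.74 in tibial cultures. Tibial 1 and 2 were highest, while mandibular 3 and tibial 3 were lowest and within 0.03 of each other on this probe set, and the site difference was -0.35 (SE 0.38). The other 2 probe sets of COL6A3 differed by -0.34 and -0.28. Without tibial 1 the difference was -0.03. COL6A5, a chain that can take the place of the COL6A3 product, ranged over 0.37 at levels below the lower quartile on all 6 arrays.

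Collagen VIII gave the largest site difference of the set through COL8A1. Its chains, encoded by COL8A1 and COL8A2, form the open hexagonal lattice known from Descemet's membrane of the cornea and are also made in vessel walls. COL8A1 measured 7.86, 11.25 and 8.79 in mandibular cultures, against 11.05, 10.80 and 9.27 in tibial cultures. Mandibular 2 was the highest of all arrays, above tibial 1 and 2, and mandibular 1 was the lowest, a 10.5-fold span. The difference of -1.07 (SE 0.90), a 2.10-fold lower mandibular mean, ran from -2.04 without mandibular 2 to -0.35 without mandibular 1. Its second probe set lay lower, at 2.22 on mandibular 1 and 3.49 on mandibular 3. The lower quartiles of those arrays were 3.912 and 3.855, and levels below them cannot be separated from background. That probe set had the same order of the arrays and differed by -1.15 (SE 0.98). COL8A2 did not share that order: it measured 7.74, 7.31 and 7.14, against 7.15, 8.27 and 7.93, and was highest on tibial 2 and lowest on mandibular 3. Its difference was -0.38 (SE 0.31), and it stayed negative in each single omission.

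COL10A1, the collagen of hypertrophic cartilage in the same short-chain class, measured 3.99, 4.23 and 4.22 in mandibular cultures, against 4.71, 3.64 and 3.95 in tibial cultures. These low values overlapped, with a difference of 0.05 (SE 0.27). The mean level of 10 chondrocyte marker genes ranged from 5.34 to 5.68 on the mandibular arrays, against 5.05 to 5.50 on the tibial arrays.

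Collagen IV held the widest spread. COL4A1 and COL4A2 encode the 2 chains of the trimer found in nearly all basement membranes, and they are neighbours in the RefSeq annotation of Sscrofa11.1, with 0 protein-coding genes between them. COL4A1 measured 6.56, 10.64 and 7.81 in mandibular cultures, against 10.03, 8.80 and 5.89 in tibial cultures. Its highest array, mandibular 2, was 26.8-fold above its lowest, tibial 3. COL4A2 measured 6.06, 8.57 and 6.72, against 8.23, 7.31 and 6.19, a 5.71-fold span. Both genes ran from mandibular 2 through tibial 1 and tibial 2 to mandibular 3, and differed only in which of mandibular 1 and tibial 3 came last.

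The site means of both chains were close, and each site held high and low arrays. COL4A1 averaged 8.34 ± 2.09 in mandibular and 8.24 ± 2.12 in tibial cultures (SD, n = 3 each), a difference of 0.10 (SE 1.34). COL4A2 averaged 7.12 ± 1.30 and 7.24 ± 1.02 (SD, n = 3 each), a difference of -0.13 (SE 0.75). The 95% interval of COL4A1 ran from -3.09 to 3.29, so a difference of several fold in either direction was not excluded. Single omissions moved COL4A1 from -1.08 without tibial 3 to 0.99 without tibial 1, and COL4A2 from -0.86 without mandibular 2 to 0.40 without mandibular 1.

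COL4A3 and COL4A6 belong to the collagen IV trimers of restricted tissues such as the kidney glomerulus and smooth muscle. COL4A6 measured 4.69, 4.87 and 4.88 in mandibular cultures, against 5.01, 5.08 and 5.11 in tibial cultures. Its values did not overlap, and it was the one member whose difference, -0.26 (SE 0.11), exceeded the range within both sites, though at a low level and without passing the adjusted test. The sign held in every single omission, between -0.29 and -0.20. COL4A3 ranged over 0.55 and differed by -0.0037 (SE 0.17).

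COL15A1 and the laminin chains LAMA4 and LAMB1 resembled the collagen IV pair in their order over the arrays. COL15A1, a proteoglycan-like collagen of the zone between basement membrane and fibrils, measured 10.77, 11.77 and 10.50 in mandibular cultures, against 11.84, 11.21 and 9.83 in tibial cultures. Tibial 1 and mandibular 2 were highest and tibial 3 lowest, a 4.04-fold span, with a difference of 0.05 (SE 0.56). LAMA4, the laminin alpha chain of mesenchymal cells and vessel walls, measured 8.63, 10.14 and 8.95, against 9.97, 9.69 and 8.39. LAMB1, the widely used beta chain that pairs with it, measured 9.97, 10.78 and 10.34, against 10.50, 10.39 and 9.90. Their differences were -0.12 (SE 0.53) and 0.10 (SE 0.25).

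COL4A1, LAMA4 and LAMB1 had exactly the same order of the 6 arrays, from mandibular 2 through tibial 1, tibial 2, mandibular 3 and mandibular 1 to tibial 3. That is 3 of 33 genes (9.09%), while 79 of all 27558 probe sets (0.287%) had that order. The order was taken from COL4A1 after the values were seen, so COL4A1 had it by construction and the shares are not a test. No other order was shared by any of the remaining genes.

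**Figure D2:**
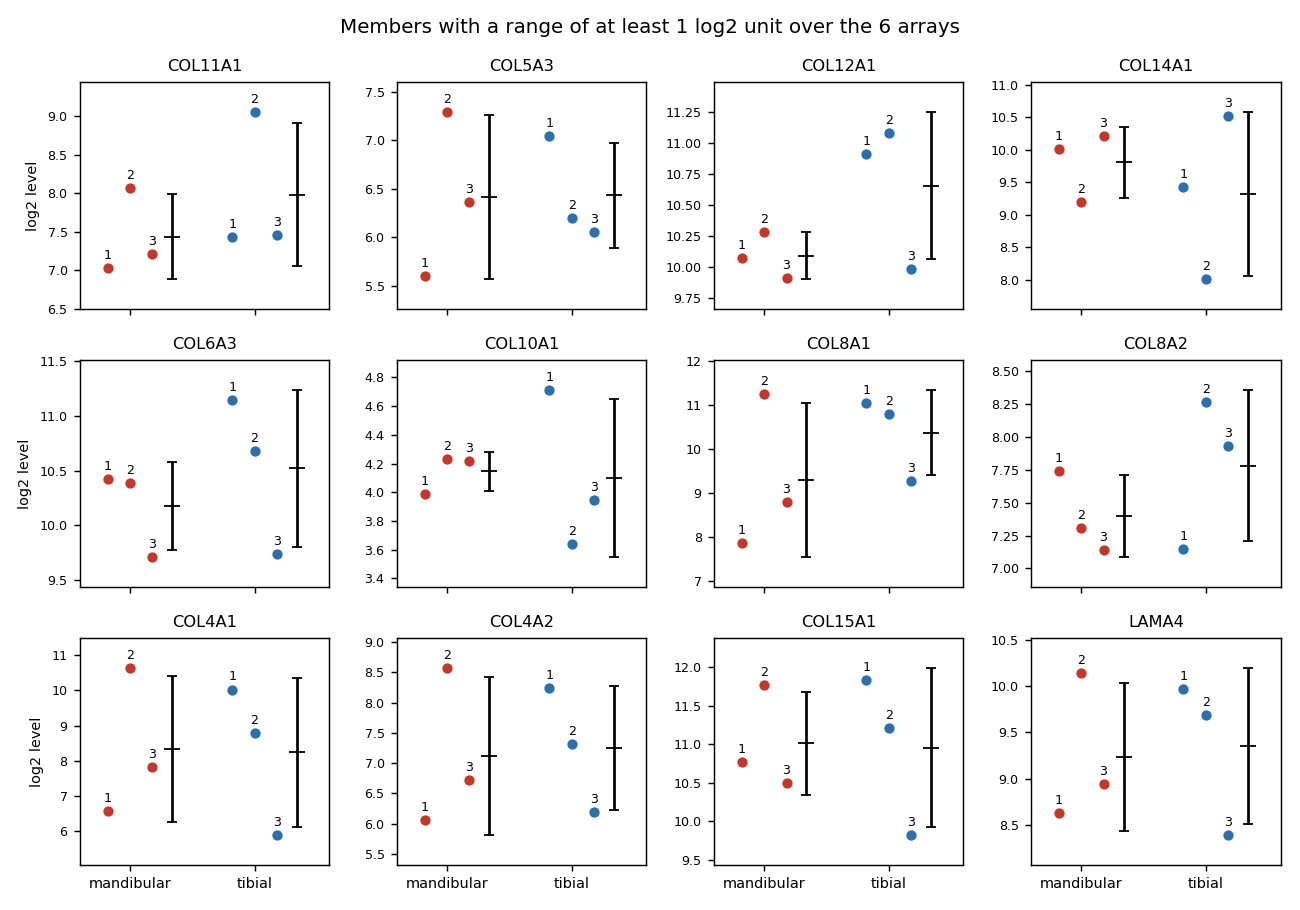
Log2 level (vertical axes, each with its own scale) of the 12 genes that spanned 1 log2 unit or more, with mandibular arrays in red left of tibial arrays in blue. Numbers are the labelled sample numbers, and bars give the mean and SD of 3 arrays. For COL4A1, COL4A2, COL8A1 and LAMA4, mandibular 2 is the highest point of the panel and mandibular 1 or tibial 3 the lowest.

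The chains of epithelial attachment spanned less than 1 log2 unit and overlapped between the sites. LAMA3 and LAMB3 encode chains of the laminin under stratified epithelia, COL17A1 a transmembrane collagen of hemidesmosomes, and COL7A1 the anchoring fibril. LAMA3 averaged 5.13 ± 0.33 in mandibular and 5.30 ± 0.32 in tibial cultures, and LAMB3 averaged 5.73 ± 0.027 and 5.602 ± 0.31 (SD, n = 3 each). COL17A1 ranged over 0.42 and differed by -0.05 (SE 0.16). COL7A1 measured 6.66, 6.21 and 6.86, against 6.25, 6.43 and 6.97, highest on tibial 3 and mandibular 3 and lowest on mandibular 2. EPCAM, a defining epithelial marker, ranged from 3.505 to 4.02 on the mandibular arrays, against 3.501 to 3.84 on the tibial arrays. The mean of 11 measured epithelial genes ranged from 4.599 to 4.88, against 4.77 to 4.93. ESRP1, an epithelial splicing regulator and the widest of them, measured 4.13, 3.41 and 5.39, against 2.81, 3.90 and 5.73. Like COL7A1 it was highest on tibial 3 and mandibular 3, but the other epithelial genes did not share this. Of the 11, 8 were highest on tibial 1 and only ESRP1 on tibial 3, and 5 were lowest on mandibular 3. The transmembrane collagen gene COL23A1 and the laminin gamma chain gene LAMC3 had ranges of 0.53 and 0.51, with differences of -0.09 (SE 0.16) and -0.03 (SE 0.16).

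The mean of smooth muscle and pericyte markers was high on the arrays where COL4A1, COL4A2 and LAMA4 were high, and that of endothelial markers in part. The mean of 9 measured of 14 smooth muscle and pericyte genes was 7.42, 8.11 and 7.56 on mandibular arrays 1, 2 and 3, against 8.18, 7.80 and 7.44 on tibial arrays 1, 2 and 3. The mean of 10 measured of 16 endothelial genes was 5.05, 5.46 and 5.09, against 5.40, 5.18 and 5.03. The smooth muscle and pericyte mean was highest on mandibular 2 and tibial 1 and next on tibial 2, as COL4A1, COL4A2 and LAMA4 were, also without its widest gene, ABCC9. Not all 9 genes did so: 5 were highest on mandibular 2 and 2 on tibial 1, but 1 was lowest on tibial 1 and 2 on tibial 2. COL4A3, COL4A6, LAMA3, LAMB3 and LAMC3 did not have these arrays highest either. The endothelial mean on mandibular 2 rested on FLT1: without it, a choice made after the values were seen, the other 9 genes averaged 5.14, 5.16 and 5.11, against 5.51, 5.28 and 5.11. Of the 10 endothelial genes, 5 were highest on tibial 1 and 3 on mandibular 2. PECAM1, an adhesion molecule of endothelium and leukocytes, was 5.601, 5.63 and 5.58, against 6.36, 6.24 and 5.84.

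Of the marker lists, macrophage genes differed most between arrays. The mean of 18 measured of 24 genes was 5.002, 6.22 and 5.02 on mandibular arrays, against 8.55, 7.91 and 5.50 on tibial arrays. PTPRC, the pan-leukocyte antigen, was 3.42, 4.86 and 3.71, against 7.66, 6.96 and 3.91. The macrophage mean, COL4A1 and COL8A1 all had mandibular 2, tibial 1 and tibial 2 as their highest arrays. COL4A1 and COL8A1 were highest on mandibular 2, where macrophage genes stood below tibial 1 and 2. COL6A3 and COL12A1 were highest on tibial 1 and 2, as macrophage genes were. Cell cycle genes, 12 measured of 25, averaged 7.64, 7.73 and 8.59, against 6.12, 6.71 and 8.19, highest on mandibular 3 and tibial 3, where COL6A3 was lowest. On the lists of stromal, epithelial, osteoblast, Schwann and skeletal muscle genes the array means spanned less than 1 log2 unit each. So did those of the smooth muscle and pericyte and endothelial lists. The stromal mean was 8.42, 8.69 and 8.43, against 8.88, 8.75 and 8.43. Without its widest gene, VCAM1, it was 8.88, 9.03 and 8.95, against 8.81, 8.89 and 8.91. The mean of 4 skeletal muscle genes was also highest on mandibular 2 and tibial 1. Adipocyte genes averaged 5.05, 5.75 and 5.04, against 6.35, 5.80 and 4.82, and were thus also highest on tibial 1, tibial 2 and mandibular 2. The part of any of these cells, or of cell division, in the collagen and laminin values was not tested. In bulk RNA, fewer cells of a type and less RNA per cell cannot be told apart.

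**Figure D3:**
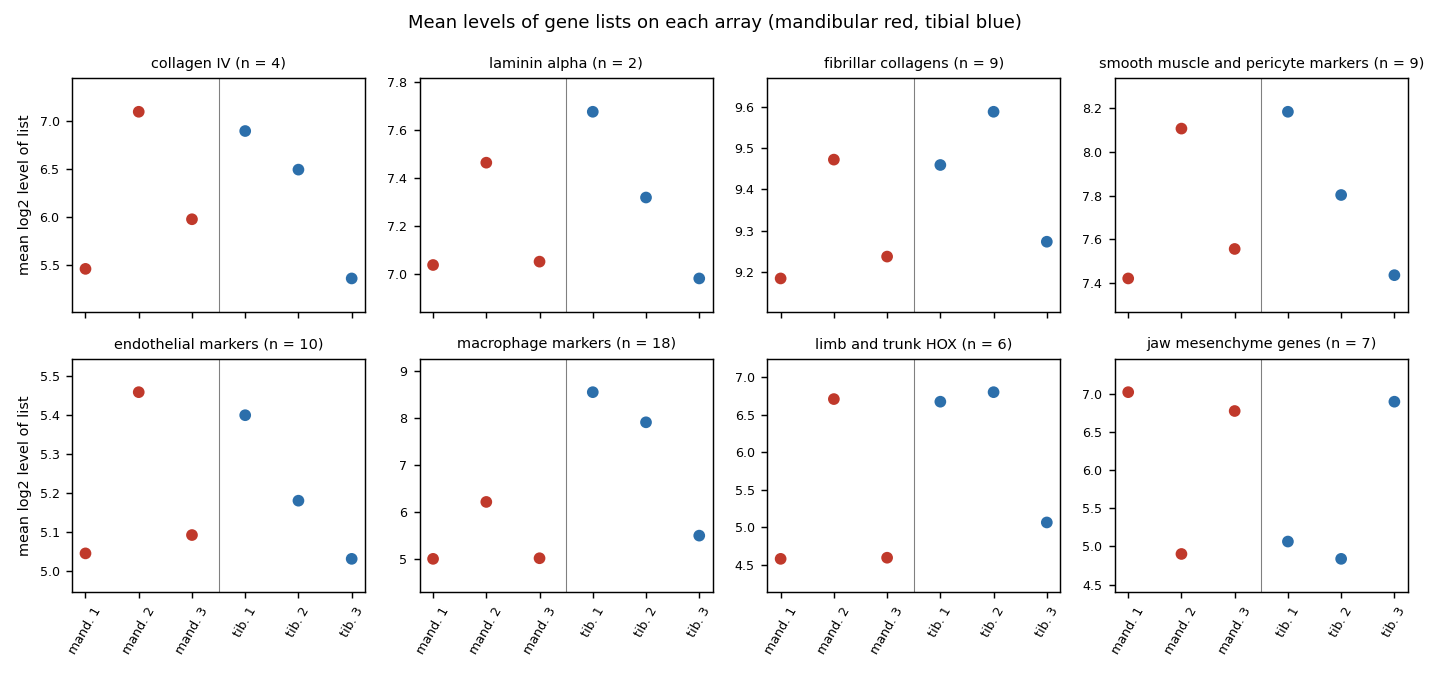
Mean log2 level of gene lists (vertical axes, each with its own scale) on the 6 arrays, mandibular in red left of tibial in blue, with the number of measured genes in each title. Collagen IV, smooth muscle and pericyte and limb and trunk HOX lists are high on mandibular 2, tibial 1 and tibial 2, the endothelial list is high on mandibular 2 through FLT1, and the jaw mesenchyme list is high on mandibular 1, mandibular 3 and tibial 3.

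Without the arrays labelled mandibular 2 and tibial 3, several of these genes differed between the remaining 2 mandibular and 2 tibial arrays. The omitted arrays were singled out by positional genes in an earlier look at the same data, so p-values here are too small. COL8A1 was the 1 called gene of 33, at -2.60 (SE 0.33), a 6.05-fold lower mandibular mean (adjusted p = 0.0456 in limma), where 0.708% of all probe sets were called. Its second probe set differed by -2.72 (SE 0.41) and was not called (adjusted p = 0.0716 in limma). The mandibular values of that probe set in this fit lay below the lower quartiles of their arrays. At an unadjusted p under 0.05 there were 8 of 33 genes, where the share of all probe sets was 9.50%.

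Those 8 genes comprised COL8A1 and 7 that did not pass the adjusted threshold. COL4A1 was at -2.23 (SE 0.55) and COL4A2 at -1.38 (SE 0.38), both lower in the mandibular arrays kept (adjusted p = 0.22 and 0.271). LAMA4 was at -1.05 (SE 0.21), COL12A1 at -1.002 (SE 0.18), COL15A1 at -0.89 (SE 0.26) and COL6A3 at -0.84 (SE 0.30). COL14A1 was the only one of the 8 with the higher mandibular mean, at 1.39 (SE 0.46). The sign of COL4A1 and of COL15A1 turned against the fit of all 6 arrays, while COL1A1, COL1A2 and COL5A2 stayed at -0.03, -0.13 and -0.16. Of the genes with an unadjusted p above 0.05, COL11A1 moved to -1.11 (SE 0.51), COL5A3 to -0.64 (SE 0.38), LAMB1 to -0.29 (SE 0.20) and COL7A1 to 0.42 (SE 0.18).

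**Figure D4:**
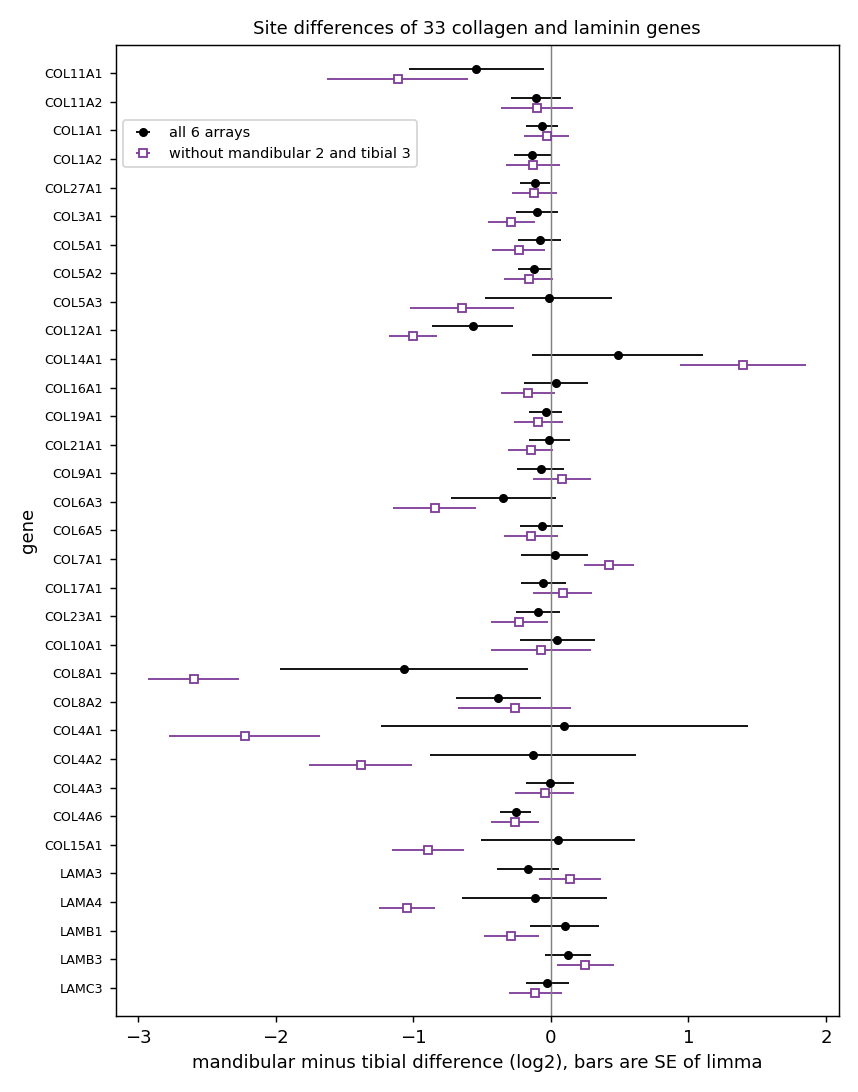
Mandibular minus tibial difference on the log2 scale (horizontal axis) for the 33 genes, with bars for the SE of limma. Filled circles use all 6 arrays and open squares leave out the arrays labelled mandibular 2 and tibial 3. COL8A1, COL4A1, COL4A2, LAMA4 and COL15A1 move to the left without those arrays and COL14A1 moves to the right, while COL1A1, COL1A2 and COL4A6 stay in place.

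Genes that make and finish collagen did not pass between the sites either. Of 26 measured genes of hydroxylation, folding, export, propeptide cleavage and crosslinking, 10 were higher and 16 lower in mandibular cultures, where 49.0% of all probe sets were lower. Their median was -0.05, and 0 were called, as were 0% of all probe sets. The 4 with the smallest p were P4HA3, a prolyl hydroxylase subunit, at -0.76 (SE 0.41), ADAMTS2 at -0.27 (SE 0.15) and ADAMTS14 at -0.33 (SE 0.26), both of which cut the amino-terminal propeptide, and LOXL4, a crosslinking oxidase, at -0.45 (SE 0.38). P4HA3 measured 8.94, 7.22 and 8.12 in mandibular cultures, against 8.74, 8.69 and 9.13 in tibial cultures, and was lowest on mandibular 2. Its difference was -0.33 without mandibular 2 and -0.19 (SE 0.29) without both arrays set apart by positional genes. ADAMTS14 was at -0.66 (SE 0.24) and LOXL4 at -0.30 (SE 0.49) without those arrays, and LOXL4 was at -0.071 without tibial 2.

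Among receptors for collagen and laminin, 8 of 11 had the higher mean in mandibular cultures, where 51.0% of all probe sets were higher. Their median was 0.15, and 0 were called, as were 0% of all probe sets. At an unadjusted p under 0.05 in limma there were 2 of 11, where the share of all probe sets was 3.03%. ITGA10, a collagen-binding integrin chain best known from cartilage, measured 6.82, 6.05 and 6.41 in mandibular cultures, against 5.12, 5.26 and 6.25 in tibial cultures. Tibial 3 lay between the mandibular values, and the difference was 0.88 (SE 0.34). ITGA3, a chain of a laminin-binding integrin, measured 7.50, 7.89 and 7.71, against 7.51, 6.47 and 6.81, with a difference of 0.77 (SE 0.27). The collagen receptor kinase gene DDR1 differed by 0.24 (SE 0.15), and the collagen uptake receptor gene MRC2 by 0.37 (SE 0.26). DDR1 was the 1 receptor of 11 without overlap, where 6.92% of all probe sets had none. Without mandibular 2 and tibial 3, ITGA10 was at 1.42 (SE 0.21), MRC2 at 0.76 (SE 0.21), ITGA3 at 0.62 (SE 0.36) and DDR1 at 0.12 (SE 0.17). In that fit 0 of the 11 were called, where 0.708% of all probe sets were called.

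Of 10 measured partners of the basement membrane, 3 had the higher and 7 the lower mean in mandibular cultures, where 49.0% of all probe sets were lower. Their median was -0.16, and 0 were called, as were 0% of all probe sets. At an unadjusted p under 0.05 in limma there was 1 of 10, where the share was 3.03%. For 1 of 10 the site values did not overlap, where 6.92% of all probe sets had no overlap. NTN4, a netrin related to laminin chains that binds laminin networks, measured 7.62, 7.22 and 7.61 in mandibular cultures, against 7.22, 6.25 and 6.89 in tibial cultures. Its difference was 0.70 (SE 0.26), with mandibular 2 and tibial 1 nearly level. HSPG2, the perlecan gene, differed by -0.27 (SE 0.17), the elastic fibre gene FBLN5 by 0.46 (SE 0.34), and SPARC, which encodes a collagen-binding glycoprotein, by -0.16 (SE 0.13). Without mandibular 2 and tibial 3, NTN4 was at 0.88 (SE 0.33), HSPG2 at -0.51 (SE 0.16), FBLN5 at 0.96 (SE 0.23) and SPARC at -0.22 (SE 0.19).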

How the data were processed

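The table deposited by the authors gives log2 levels for 27558 probe sets on 6 arrays, for which the submitters' processing notes name RMA, and as software Transcriptome Analysis Console 3.0 beside Affymetrix Expression Console. RMA brings the distributions of the arrays close to each other, so a shift shared by all genes would be largely removed. They were not equal in the deposited values: array medians lay between 5.628 and 5.712. Precision is limited by the number of arrays. The sources used here give neither settings nor a genome build.

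Symbols came from GEO's platform annotation, with 13157 probe sets holding a single symbol, 523 holding more and 13878 without one. A probe set that repeats the symbol COL4A5 was left out. The 33 genes had 37 probe sets. Of the 33, 30 matched a RefSeq gene of Sscrofa11.1 by Entrez number, all with the same symbol. Placeholder names (LOC and Ensembl numbers) were set aside in the count of 11079 genes.

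Differences are mandibular minus tibial from moderated linear models (limma 3.58.1 under R 4.3.3, two-sided, Benjamini-Hochberg over all probe sets, threshold 0.05), checked on simulated data. Intervals are at the 95% level. No label says which cultures shared an animal, so arrays were unpaired and p-values ignore shared animals. The members, the lists of partner and marker genes and the 2 arrays left out together were chosen with earlier results of these data known. Genes that spanned 1 log2 unit or more, or did not overlap, are given array by array, and from each partner list the 4 genes with the smallest p are named. Alternatives were a replicate block, centring, filters on low levels, array weights, other variance models, other probe sets and omission of arrays.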

Additional observations from a re-analysis of the deposited data

How the results depend on the processing

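The count of called genes among the 33 stayed at 0 under all settings tried except the omission of mandibular 2 and tibial 3 together, which gave 1. Over all probe sets it was 0 with all arrays, 0 to 2 in single omissions (1 without tibial 1, 2 without tibial 3) and 195 without both arrays. With the replicate number as a block it was 0, with 2 of the 33 genes at an unadjusted p under 0.05. The numbers were not taken as pairs because no label ties them to an animal. The deviations of same-numbered arrays correlated at -0.033, 0.212 and 0.473 for numbers 1, 2 and 3. Those of different numbers ran from -0.486 (mandibular 2 with tibial 3) to 0.361 (mandibular 2 with tibial 1). These values cannot decide pairing, because deviations within a site depend on one another and the labels of mandibular 2 and tibial 3 are in question. The median difference of the 33 genes lay between -0.17 and -0.0086 in single omissions and was -0.05 after centring on array medians. With that centring, 11 genes were higher and 22 lower in mandibular cultures.

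Signs of small differences were not stable. After centring, COL21A1, COL4A3 and COL5A3 turned to 0.016, 0.021 and 0.0091. With array weights, COL21A1, COL5A3, COL9A1 and LAMC3 turned to 0.0028, 0.11, 0.021 and 0.0086. Without mandibular 2 and tibial 3, COL4A1 turned to -2.23, COL15A1 to -0.89, LAMB1 to -0.29, COL16A1 to -0.17, COL10A1 to -0.072, COL17A1 to 0.088, COL9A1 to 0.079 and LAMA3 to 0.14. In single omissions 22 of the 33 genes changed sign at least once. Their lowest and highest values were -1.08 and 0.99 for COL4A1, -0.86 and 0.40 for COL4A2, -0.60 and 0.19 for LAMA4, -0.51 and 0.49 for COL15A1, -0.45 and 0.39 for COL5A3, and -0.17 and 1.09 for COL14A1. They were -0.18 and 0.35 for COL10A1, -0.28 and 0.053 for COL11A2, -0.21 and 0.16 for COL16A1, -0.18 and 0.021 for COL17A1, -0.092 and 0.032 for COL19A1, -0.15 and 0.078 for COL21A1, and -0.19 and 0.023 for COL23A1. They were -0.11 and 0.17 for COL4A3, -0.19 and 0.044 for COL5A1, -0.18 and 0.010 for COL6A5, -0.12 and 0.24 for COL7A1, and -0.19 and 0.045 for COL9A1. For laminins they were -0.34 and 0.0060 for LAMA3, -0.11 and 0.30 for LAMB1, -0.046 and 0.25 for LAMB3, and -0.14 and 0.11 for LAMC3. The cause was not tested. The other 11 genes kept their sign in every single omission.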

Other observations

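Among the basement membrane partners, SMOC1 and TINAGL1 stood out after the values were seen. SMOC1, which encodes a secreted calcium-binding protein found at basement membranes, measured 4.35, 7.02 and 4.19 in mandibular cultures, against 7.07, 7.48 and 4.07 in tibial cultures. TINAGL1, which encodes a matricellular protein that binds laminin, measured 4.96, 8.17 and 5.27, against 9.29, 7.24 and 4.87. Both were high on mandibular 2, tibial 1 and tibial 2, as COL4A1 and COL8A1 were. With all arrays they differed by -1.02 (SE 1.10) and -1.002 (SE 1.27). Without mandibular 2 and tibial 3, SMOC1 was the 1 called gene among the 10 partners, at -3.00 (SE 0.21, limma adjusted p = 0.00977), where 0.708% of all probe sets were called, and TINAGL1 was at -3.15 (SE 0.64, adjusted p = 0.147).

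The array labelled mandibular 2, with the highest COL4A1 and LAMA4, also had the highest levels of FLT1 and MCAM, chosen from the vessel markers after their values were seen. Of the 10 endothelial genes 3 were highest there and 5 on tibial 1, and of the 9 smooth muscle and pericyte genes 5 were highest there and 2 on tibial 1. FLT1, a receptor of vascular endothelial growth factor, measured 8.14 there and 4.16 and 4.91 on mandibular 1 and 3, against 4.26 to 4.44 on the tibial arrays. MCAM, an adhesion molecule of endothelium and pericytes, measured 8.55 there and 6.59 and 6.68 on mandibular 1 and 3, against 6.28 to 7.71 on the tibial arrays. Their part in the collagen and laminin levels was not tested.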
